A study of Homo sapiens with 28 samples.

Results

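The nuclear-encoded subunits of the mitochondrial respiratory chain were followed through hypoxia and through changes of the transcription factor ONECUT2 (OC2) in 2 human prostate cancer cell lines. The genes were chosen by symbol: the NDUFA (without the NDUFAF assembly factors), NDUFB, NDUFC, NDUFS, NDUFV, UQCR, COX4I, COX5, COX6, COX7, COX8 and ATP5 families, with SDHA, SDHB, SDHC, SDHD and CYC1. Of the 19662 gene symbols in each table, 91 matched, and a mean of at least 1 RPKM (reads relative to transcript length and to the size of the library) was reached by 83 of them in PC3 and 85 in LNCaP. All 83 and all 85 passed the filter on low values, which asks for at least 1 RPKM in at least 2 libraries. Subunits of the 5 complexes made up 76 of the PC3 genes and 77 of the LNCaP genes, namely 37 of complex I, 4 of complex II, 9 of complex III, 11 (PC3) or 12 (LNCaP) of complex IV and 15 of ATP synthase in each line. The rest were the pair NDUFA4 and NDUFA4L2, the read-through transcripts NDUFC2-KCTD14 and, in LNCaP, ATP5J2-PTCD1, the pseudogenes ATP5EP2 and COX6A1P2, and ATP5S and ATP5SL, which carry the family name but are not subunits.

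Each line gave 8 polyA RNA-Seq libraries, 2 in each of 4 groups. PC3, a line from a bone metastasis, was transfected with control siRNA (siCtrl) or with siRNA against ONECUT2 (siOC2), and the 2 siOC2 libraries of a group carry different siRNAs. LNCaP, a luminal line from a lymph node metastasis, carried an empty vector (EV) or Flag-tagged OC2 that was overexpressed (OC2). Each was kept in normoxia or in a hypoxia chamber at 0.2% oxygen, for a time that is not stated in the sources used here. The labels do not say that the 2 libraries of a group came from separate cultures, so the p-values below measure the spread between libraries, which may be technical, and PC3 and LNCaP were normalised separately, so that values of the 2 lines stand side by side without a test.

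The respiratory chain passes electrons from NADH (complex I) or succinate (complex II) through complex III to oxygen at complex IV, and the proton gradient it builds drives ATP synthase. A few subunits come from mitochondrial DNA and all others from nuclear genes, which is why both genomes must be read in step to build complexes I, III, IV and ATP synthase. Hypoxia, through the hypoxia-inducible factors, is known to favour glycolysis over respiration and to exchange some chain subunits for isoforms, of which COX4I2 (in place of COX4I1) and NDUFA4L2 (a relative of NDUFA4) are the best known. NDUFA4 was first described with complex I and is now counted with complex IV.

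NDUFA4L2 is the gene whose level moved most here, so the 250 bases before a RefSeq start of it are shown beside those of NDUFA4, its partner. The windows come from RefSeq (start sites of GRCh38.p14) and each was found exactly once on its chromosome in GRCh37, the build of the expression tables. NDUFA4L2 starts on the minus strand of chromosome 12 (gene 57628686 to 57634498 in GRCh37) and NDUFA4 on the minus strand of chromosome 7 (gene 10971570 to 10979780). The windows were read for the 2 forms of the core hypoxia-response motif, ACGTG and GCGTG, on both strands (CACGT and CACGC), and matches are in capitals.
NDUFA4L2, chr12:57634546-57634795, minus strand, 5′ to 3′: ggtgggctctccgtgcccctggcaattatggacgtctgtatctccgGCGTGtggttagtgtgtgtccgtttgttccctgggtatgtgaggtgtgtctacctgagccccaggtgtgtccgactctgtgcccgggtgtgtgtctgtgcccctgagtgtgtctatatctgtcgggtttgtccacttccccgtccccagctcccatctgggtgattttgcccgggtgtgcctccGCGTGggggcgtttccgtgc
NDUFA4, chr7:10979781-10980030, minus strand, 5′ to 3′: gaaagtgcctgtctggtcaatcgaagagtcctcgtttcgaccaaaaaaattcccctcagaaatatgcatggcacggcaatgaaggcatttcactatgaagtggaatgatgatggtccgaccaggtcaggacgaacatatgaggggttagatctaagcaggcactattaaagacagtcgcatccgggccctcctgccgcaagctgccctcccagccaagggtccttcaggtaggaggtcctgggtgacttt
The NDUFA4L2 window held GCGTG at 2 places, whose first bases lie 204 and 20 bases before the RefSeq start, and no ACGTG. That start lies upstream of the gene bound given above (57634498), which comes from another annotation, GENCODE. From that bound both distances would be longer. The NDUFA4 window adjoins its gene bound. A second RefSeq window of NDUFA4L2, not shown, also held GCGTG at 2 places and no ACGTG. The NDUFA4 window held neither form. GCGTG occurred in 32.2% of 35114 promoter windows of this length and in 38 of the 82 windows (46.3%) that matched 68 of the 85 LNCaP genes. ACGTG occurred in 18.5% of all windows and in 17 of the 82 (20.7%). ATTGAT, a core of the sequences that ONECUT factors bind, was in 5.58% of all windows and in 7 of the 82 (8.54%). The variant ATCGAT was in 0.655% of all and in 1 of the 82, that of ATP5G1. These matches describe letters and say nothing of binding.

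Checks of the labels came first. ONECUT2 read 1.77, 1.16, 0.65 and 0.55 RPKM in the siCtrl libraries of PC3 and between 0.13 and 0.28 in the siOC2 libraries, and has no value in the 4 LNCaP OC2 libraries, so overexpression could not be read from the table. CA9, the hypoxia-induced carbonic anhydrase, was at 0.39 to 1.54 RPKM in normoxic and 25.8 to 50.0 in hypoxic PC3, and at 0 to 0.53 and 3.05 to 5.38 in LNCaP. KLK3 (1842 to 3997 RPKM) marked LNCaP, whereas PC3 had KLK3 listed at 0 and CAV1 at 15.9 to 107. Depth, as read from the steps between low RPKM values, ran from 0.303 to 1 of the deepest library in PC3 and from 0.549 to 1 in LNCaP, and the total number of reads is not given in the tables. A pair of libraries held many extremes of the chain genes. The LNCaP EV normoxia 2 library was the highest of 8 for 51 of 85 genes. PC3 siOC2 hypoxia 1, the shallowest library, was the lowest of 8 for 47 of 83. The same was not counted over all genes, so neither count is read as particular to the chain. PC3 siOC2 hypoxia 1 was low as a whole. Its upper quartile over tested genes was 19.0 RPKM, against 21.0 to 24.6 in the other PC3 libraries. The nearly as shallow siCtrl hypoxia 2 and siCtrl normoxia 1 (0.333 and 0.364 of the deepest) were the lowest for 10 and 9 genes.

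Summed over the 5 complexes, the chain genes made up 2.44% to 2.68% of all RPKM in the 4 normoxic LNCaP libraries and 1.82% to 1.95% in the 4 hypoxic ones. That total holds the 13 mitochondrially encoded subunits, of which 5 or 6 were listed at 0 in each normoxic LNCaP library and 0 in the hypoxic ones. Of all RPKM without these 13, the chain genes made up 2.73% to 2.99% in normoxic and 2.36% to 2.396% in hypoxic LNCaP, which did not overlap. In PC3, where none was listed at 0, the share of all RPKM was 1.90% to 2.13% over all 8 libraries, and the share without the 13 was 2.43% to 2.53% in normoxia and 2.1001% to 2.32% in hypoxia. ATP5B, the catalytic beta subunit of ATP synthase, was the highest gene of both lists, with a mean of 1959.8 RPKM in LNCaP and 695 in PC3, followed within that complex by ATP5J2 (1490.4 and 538). In complex I the highest means were NDUFS5 (646) and NDUFV2 (438) in LNCaP and NDUFB4 (224) and NDUFS5 (223) in PC3, and in complex II SDHB (94.2; 133) and SDHC (85.5; 82.7) stood above SDHA (73.8; 16.6) and SDHD (20.5; 7.82). UQCRB (1063.7; 177) and COX7C (814; 432) led complexes III and IV, with UQCRH (375) and COX7A2 (440) next in LNCaP and UQCRQ (162) and COX6C (336) next in PC3. UQCRFS1, the Rieske iron-sulphur protein, was the lowest complex III gene in both (35.3; 9.86).

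The same subunit could sit at different places in the 2 lines. COX4I1, the ubiquitous form of subunit 4 of complex IV, read 254 to 357 RPKM in LNCaP and 11.4 to 18.2 in PC3, which put it at the 96.9 percentile of tested genes in LNCaP and the 66.1 percentile in PC3. NDUFB6 stood at the 65.3 percentile against the 12.6, NDUFA5 at 91.2 against 58.2, ATP5E at 92.1 against 60 and NDUFA7 at 95.8 against 74.9. The direction was the other way for COX5B (88.7 in LNCaP and 95.4 in PC3). A ranking within a table does not depend on its scale, but the cause of these gaps was not tested.

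**Figure D1:**
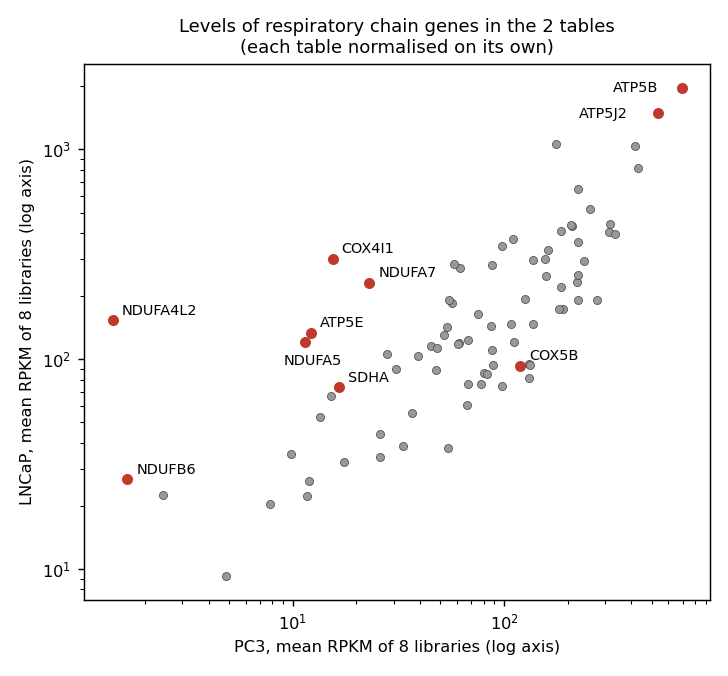
Mean RPKM over 8 libraries of each respiratory chain gene in PC3 (x axis) and LNCaP (y axis), both axes log, with the named genes in red. COX4I1, ATP5E, NDUFA5, NDUFB6 and NDUFA4L2 lie to the upper left of the band that holds most genes. The 2 tables were normalised separately.

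Most tissue-restricted isoforms were near 0. COX6A2, COX7A1, COX8C and ATP5L2 had means of at most 0.128 RPKM in both lines. COX6B2, a testis form, had a mean of 0.30 in LNCaP and 0.41 in PC3, beside COX6B1 at 173 to 254 and 211 to 339. COX7B2 was just inside the list in LNCaP (mean 3.40, as was ATP5J2-PTCD1 at 3.38) and outside it in PC3 (0.09), beside COX7B at 371 to 457 and 135 to 237. COX4I2 was just outside it in LNCaP with a mean of 0.72. In PC3 the genes just inside were NDUFA4L2 (1.40) and NDUFB6 (1.65), and those just outside COX6B2 and ATP5J2-PTCD1 (0.21). COX6A1P2, a pseudogene, was listed at 209 to 291 RPKM in LNCaP beside COX6A1 at 333 to 497, and such near-identical copies share reads, so that neither value is certain.

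NDUFA4L2 showed the largest response of the chain genes to hypoxia in LNCaP. It was at 14.7 and 30.0 RPKM in EV normoxia and at 291 and 287 in EV hypoxia. In cells with OC2 it was at 4.49 and 7.67 in normoxia and at 319 and 276 in hypoxia. Hypoxic and normoxic libraries did not overlap in either arm. The change was 3.77 on the log2 scale in EV (SE 0.32, limma adjusted p = 9.83e-05, Benjamini-Hochberg over 12271 genes) and 5.63 in OC2 (SE 0.32, limma adjusted p = 1.66e-05), on log2(RPKM + 0.1) as for every fold change here. NDUFA4 lay at 293 and 185 in EV normoxia and 168 and 182 in EV hypoxia, and at 206, 271, 226 and 229 in the OC2 libraries in the same order (log2 change -0.41 and -0.06, limma adjusted p = 0.15 and 0.858). NDUFA4L2 thus went from 2.13% to 13.97% of the summed RPKM of the pair in normoxia to 54.6% to 63.4% in hypoxia. In both arms it was called with each library left out in turn.

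**Figure D2:**
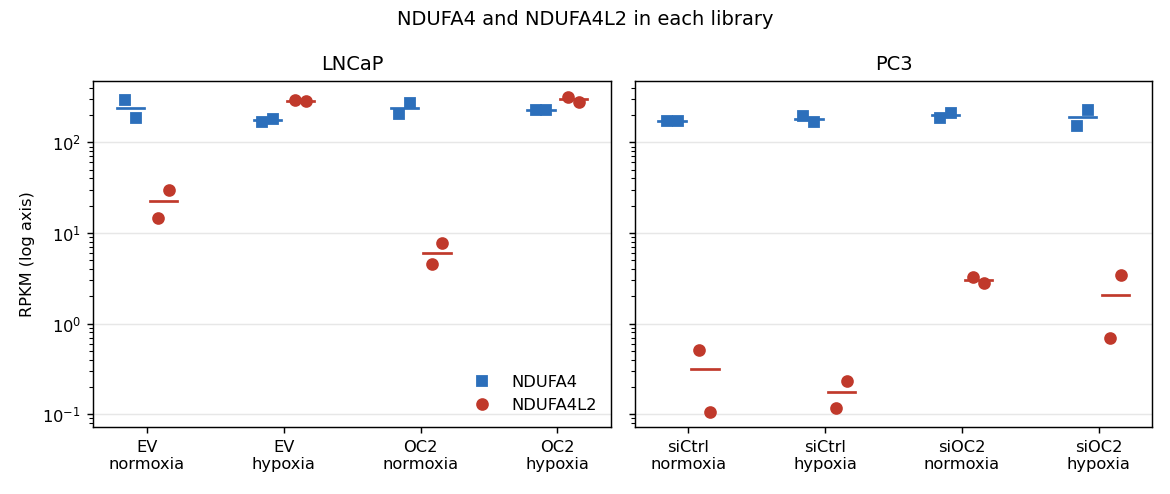
RPKM (log axis) of NDUFA4 (squares) and NDUFA4L2 (circles) in each of the 16 libraries, with short bars at the mean of the 2 libraries of a group. In LNCaP hypoxia NDUFA4L2 rose to 276 to 319 RPKM, above NDUFA4, whereas in PC3 it stayed at or under 3.46.

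In PC3 the same gene stayed low. It read 0.52 and 0.11 RPKM in siCtrl normoxia and 0.12 and 0.23 in siCtrl hypoxia, and 3.29, 2.82, 0.69 and 3.46 in siOC2 normoxia and hypoxia, never more than 1.73% of the pair. It passed the filter on low values only through the siOC2 libraries. Neither hypoxia change could be told from 0 (log2 -0.41, SE 0.84, limma adjusted p = 0.974 in siCtrl and -0.90, SE 0.84, limma adjusted p = 0.803 in siOC2). The genes whose log2 values most resembled NDUFA4L2 over the 8 LNCaP libraries were RAB11B (Pearson r 0.994), PGK1 (0.992), ALDOA (0.991), ACAD8 (0.989) and PHF2 (0.989), where 4 libraries are hypoxic and 4 normoxic. In PC3 they were DQX1 (0.987), TSPAN17 (0.981), MVB12B (0.978), UNC119B (0.962) and SHC2 (0.957), without a gene in common. The siCtrl values of NDUFA4L2 in PC3 lie near the 0.1 RPKM added before the logarithm, so nothing is read from the PC3 list.

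COX4I2, the lung and hypoxia form of subunit 4, did not replace COX4I1. It was listed at 0 in all 8 PC3 libraries and in the 4 LNCaP EV libraries, hypoxic ones included. With OC2 it read 2.31 and 0.43 RPKM in normoxia and 2.23 and 0.78 in hypoxia, at most 0.900% of the summed RPKM of COX4I1 and COX4I2. OC2 and EV libraries did not overlap, but the gene entered the fit only through its OC2 libraries, so no test is given, nor a fold against libraries listed at 0. Most like COX4I2 over the 8 LNCaP libraries were PIANP (r 0.990), PPP1R1A (0.981), HIST1H2BD (0.974), FLYWCH1 (0.971) and CCDC69 (0.964). With COX4I2 at 0 in all 4 EV libraries, a high r is open to any gene that is higher with OC2. Nothing is read from this list. COX4I1 itself did not pass the test in hypoxia in any arm.

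Outside that pair, the chain genes of LNCaP went down in hypoxia. In EV cells 33 of the 85 genes were lower and 2 higher at an adjusted p under 0.05 (limma), where 14.4% of all 12271 genes tested were lower and 18.5% higher. The median log2 change was -0.35 over the 85 genes and 0.02 over all genes, and 79 of the 85 lay below 0. Hypoxic and normoxic libraries did not overlap for 64 lower and 3 higher genes, against 32.4% and 37% of all genes. The values are relative to the library, so fewer transcripts of these genes per cell and more of all others cannot be told apart, nor can fewer cells of a kind. Of the 33 lower calls, 5 held in all 4 fits that left out a library (ATP5G1, ATP5H, NDUFB1, NDUFB3 and NDUFB6), 4 in 3, 5 in 2, 16 in 1 and 3 in 0. The median change without the EV normoxia 2 library was -0.22. More genes were called lower without EV normoxia 1, and fewer without EV normoxia 2, EV hypoxia 1 or EV hypoxia 2. Such counts rest on 1 library in a group, and only their ranges are given, in the closing section.

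**Figure D3:**
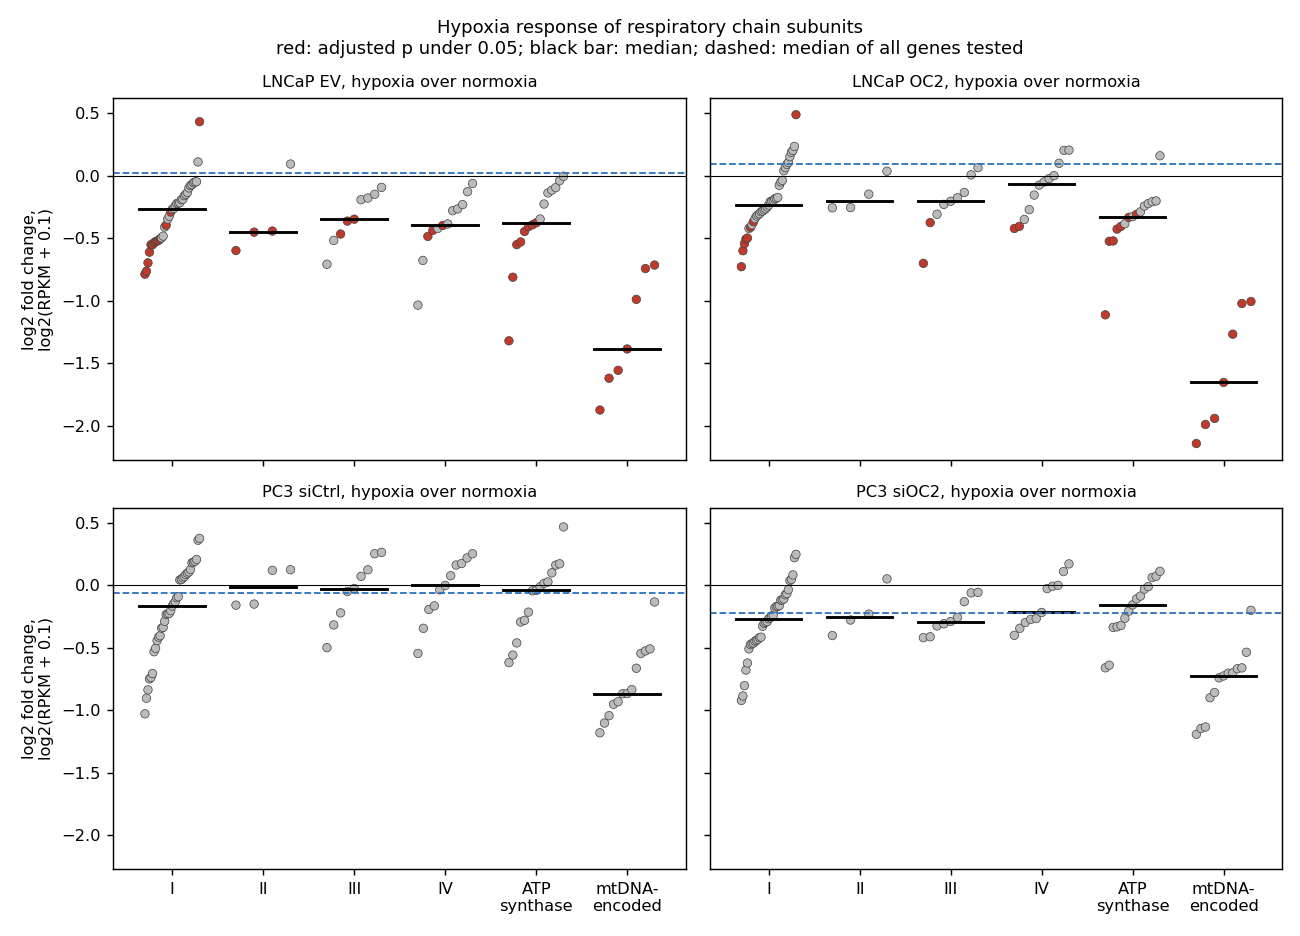
Log2 fold change, hypoxia over normoxia, of each chain gene in the 4 arms, grouped by complex with mitochondrially encoded subunits at the right; red points passed an adjusted p under 0.05, black bars are medians of each complex and the dashed line is the median of all genes tested. In both LNCaP arms most points lie below the dashed line, whereas in PC3 no point is red.

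The c subunits of ATP synthase, which form the rotor ring in the membrane and are encoded by ATP5G1, ATP5G2 and ATP5G3 with the same mature protein, held the largest fall. ATP5G1 went from 165 and 225 RPKM to 77.1 and 77.3 in EV cells and from 140 and 150 to 70.0 and 63.8 in OC2 cells, without overlap (log2 -1.32, SE 0.14, limma adjusted p = 0.000317; -1.11, SE 0.14, limma adjusted p = 0.00104). It was called with each library left out. ATP5G2 (-0.81, limma adjusted p = 0.0168) and ATP5G3 (-0.41, limma adjusted p = 0.0478) were also lower in EV, calls that each held in 1 of 4 fits with a library left out (limma adjusted p up to 0.0836 and 0.217), and in OC2 they read -0.24 and -0.21 without passing the test. ATP5G1 supplied 37.1% to 40.6% of the ring's summed RPKM in normoxic LNCaP and 25.6% to 28.7% in hypoxic LNCaP, with no overlap. In PC3 its share was 35.7% to 44.7% in normoxia and 31.0% to 36.6% in hypoxia, which overlapped.

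**Figure D4:**
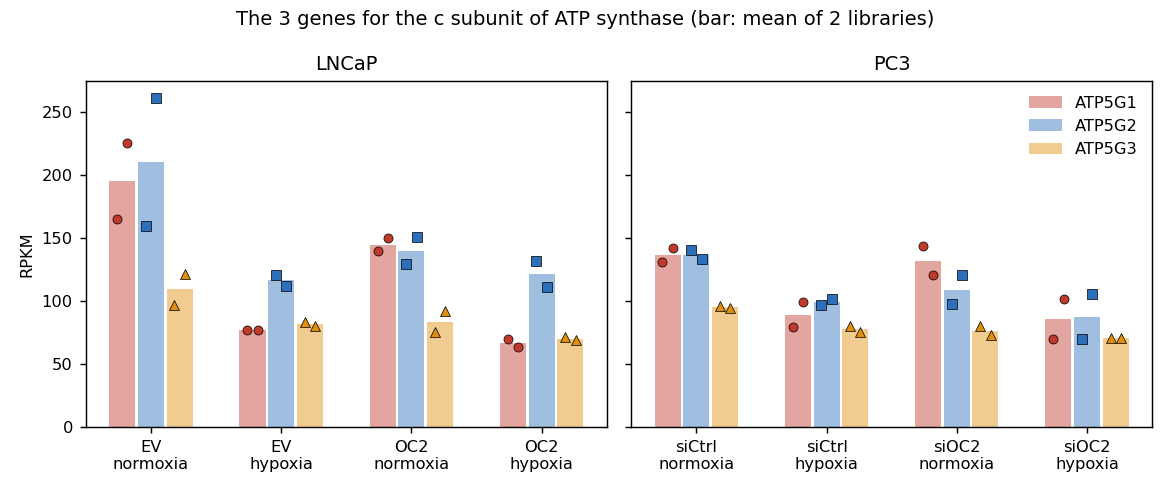
RPKM of ATP5G1, ATP5G2 and ATP5G3 in each library of LNCaP and PC3, with bars at the mean of the 2 libraries of a group. ATP5G1 is lower in every hypoxic library than in any normoxic library of the same arm in both lines, but passed the adjusted test in LNCaP only.

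Of the other ATP synthase genes in EV, 1 of the 5 of the catalytic F1 part (ATP5E, -0.39) and 4 of the 7 of the stalks and membrane part were lower: ATP5H (-0.55, limma adjusted p = 0.00514), ATP5I (-0.53), ATP5J2 (-0.45) and ATP5F1 (-0.38). ATP5B did not pass, at 2013 and 2326 RPKM in EV normoxia and 1884 and 1815 in EV hypoxia. With OC2, 7 ATP synthase genes were lower, among them the F1 subunits ATP5A1 (-0.41) and ATP5C1 (-0.33).

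In complex I, the NADH dehydrogenase, 13 of 37 genes were lower in EV and 1 was higher. All 13 were among the 30 supernumerary subunits, which surround the core and hold none of the centres that pass electrons to quinone. None of the 7 core subunits, whose median was -0.19, passed the test, and the difference between the 2 kinds was not tested. NDUFB2 went from 60.8 and 110 RPKM to 48.0 and 46.8 (-0.79, SE 0.22, limma adjusted p = 0.0268). NDUFA11 went from 108 and 156 to 74.7 and 77.7 (-0.76, SE 0.16, limma adjusted p = 0.00767). For these genes the hypoxic libraries lay below both normoxic ones, and the EV normoxia 2 library was the higher of the normoxic pair. The NDUFB2 call held in 2 of 4 fits that left out a library, and the NDUFA11 call in 3 of 4. NDUFB1 (-0.70), NDUFB6 (-0.61) and NDUFB3 (-0.55) were called with each EV library left out. NDUFB4 was the exception, at 312 and 308 in normoxia and 423 and 414 in hypoxia (0.43, SE 0.12, limma adjusted p = 0.0228), with no overlap. It also rose with OC2, from 264 and 333 to 400 and 432 (0.49, limma adjusted p = 0.0168). The EV call of NDUFB4 did not hold with any 1 of the 4 libraries left out (limma adjusted p 0.0503 to 0.12).

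Complex II, the succinate dehydrogenase, has no mitochondrially encoded subunit. SDHD (from 25.4 and 24.98 RPKM to 17.1 and 16.1; -0.60, SE 0.12, limma adjusted p = 0.00688), SDHB (-0.45, limma adjusted p = 0.0146) and SDHC (-0.44, limma adjusted p = 0.0384) were lower in EV hypoxia. SDHA, the flavoprotein that oxidises succinate, lay at 56.2 and 66.1 in normoxia and 66.7 and 63.5 in hypoxia, which overlapped (0.09, SE 0.13, limma adjusted p = 0.613). The SDHD, SDHB and SDHC calls did not hold in every fit that left out a library. Log2 changes then ran from -0.65 to -0.55 for SDHD, -0.58 to -0.32 for SDHB and -0.55 to -0.34 for SDHC. With OC2 none of the 4 SDH genes passed the test.

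In complex III 3 of 9 genes were lower in EV, UQCR10 (-0.47), UQCRC2 (-0.36) and UQCRH (-0.35). The UQCRC2 call held in 0 of 4 fits that left out a library and was lost with replicate number as a block (limma adjusted p 0.0546), and the other two held in 1 of 4. CYC1, the cytochrome c1 that hands electrons to cytochrome c, went from 84.0 and 91.3 RPKM to 79.0 and 74.2, and UQCRFS1 from 40.2 and 37.9 to 34.2 and 36.2. Neither passed the test, although their hypoxic libraries lay below the normoxic ones. UQCR10 was also lower with OC2, from 232 and 233 to 144 and 142 (-0.70, SE 0.14, limma adjusted p = 0.00808). In complex IV 3 of 12 genes were lower, COX5A (-0.49), COX7A2L (-0.44), a subunit relative that joins complexes III and IV, and COX7A2 (-0.40), which went from 504 and 505 to 384 and 382. None of these complex IV calls held in every fit that left out a library. Log2 changes then ran from -0.74 to -0.23 for COX5A, -0.47 to -0.40 for COX7A2L and -0.40 to -0.39 for COX7A2.

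Cells with OC2 had 19 genes lower and 2 higher in hypoxia (limma, adjusted p under 0.05), where 8.76% of all genes were lower and 18.8% higher. The median was -0.23 over the 85 genes and 0.09 over all genes, and 52 lower and 9 higher genes had no overlap, against 26.1% and 42% of all genes. Complex I had 7 lower genes, led by NDUFA1 (from 299.96 and 189 RPKM to 147 and 141; -0.73, SE 0.20, limma adjusted p = 0.0278) and NDUFA11 (-0.60). Complex III had 2 and complex IV 2, the latter COX6A1 (-0.42) and COX7A2L (-0.41). The arms had 12 lower genes in common, which is 36.4% of the EV list and 63.2% of the OC2 list. Of the 28 genes called lower in a single arm, 26 lay below 0 in both, as did 64 of all 85 genes. Their sign in the arm of the call was fixed by that choice. Of the 19 lower calls, 2 held in all 4 fits that left out a library (ATP5G1 and NDUFB3), 4 in 3, 1 in 2, 9 in 1 and 3 in 0. Fewer genes were called lower in OC2 without any 1 of its 4 libraries.

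Whether OC2 altered that response was tested by the interaction. No chain gene passed an adjusted p under 0.05 (limma), where 0.155% of all genes were higher and 0.163% lower, and at an unadjusted P under 0.05 5 were higher and 1 lower (10.4% and 6.64% of all genes). NDUFA4L2 rose by 1.86 log2 units more with OC2 than with EV (SE 0.45, limma adjusted p = 0.109). Without EV normoxia 1 it passed the test, as did a few other chain genes. The lowest adjusted p was that of ATP5S, a factor named for ATP synthase (0.94, SE 0.21, limma adjusted p = 0.0918). It went from 11.96 and 9.90 RPKM to 7.01 and 7.95 in EV and from 7.68 and 8.42 to 9.84 and 11.6 in OC2, opposite directions without overlap.

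Overexpressed OC2 by itself changed few chain genes. In normoxia 1 of 85 passed an adjusted p under 0.05 (limma), lower, where 2% of all genes were lower and 3.87% higher. At an unadjusted P under 0.05, 15 were lower and 2 higher (14.8% and 9.63% of all genes). That gene was NDUFA4L2, at 14.7 and 30.0 RPKM in EV and 4.49 and 7.67 in OC2 (-1.82, SE 0.32, limma adjusted p = 0.0153), without overlap. This call was lost without OC2 normoxia 1. With EV normoxia 1 left out, so that EV normoxia 2 alone stood for its group, more genes were called lower. In hypoxia 2 genes were lower and none higher, where 5.09% of all genes were lower and 6.98% higher, and 5 were lower and 2 higher at an unadjusted P under 0.05 (13.6% and 14.8%). NDUFB10 went from 292 and 295 RPKM in EV to 222 and 235 in OC2 (-0.36, SE 0.09, limma adjusted p = 0.038), and ATP5A1 from 334 and 373 to 274 and 278 (-0.36, SE 0.09, limma adjusted p = 0.0416). Both calls were lost with replicate number as a block (limma adjusted p 0.0616 and 0.0674), with upper-quartile scaling (0.0683 and 0.0748) and with any 1 library of these groups left out. NDUFA4L2, at 291 and 287 against 319 and 276, overlapped.

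Hypoxia in PC3 moved no chain gene past an adjusted p under 0.05 (limma). In siCtrl cells 0 of 83 were called, where 0.27% of all 12214 genes were higher and 0% lower. At an unadjusted P under 0.05, 5 were lower and 0 higher, where 3.35% of all genes were lower and 4.05% higher. The median was -0.05, beside -0.07 for all genes, and 29 lower and 14 higher genes did not overlap between the groups (32.9% and 22.1% of all genes). The lowest of the 5 belong to the part of complex I that passes electrons to quinone. NDUFS8 read 119 and 127 RPKM in normoxia and 57.3 and 62.8 in hypoxia (-1.03, SE 0.25, limma adjusted p = 0.232). NDUFS7 read 13.8 and 13.0, then 6.90 and 7.31 (-0.90, SE 0.26, limma adjusted p = 0.378). Their groups did not overlap. NDUFA3 (-0.71), ATP5G1 (-0.62) and COX6B1 (-0.55) were the other 3. In LNCaP EV the same pair of core subunits overlapped between normoxia and hypoxia, NDUFS8 at 92.8 and 108 against 91.1 and 103, and NDUFS7 at 20.04 and 30.8 against 21.6 and 23.2.

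In siOC2 cells, too, 0 of 83 genes passed (limma; 0.0164% of all genes higher and 0% lower), with 4 lower and 1 higher at an unadjusted P under 0.05 (4.96% and 1.82% of all genes). NDUFS7 (-0.89), NDUFS8 (-0.80) and ATP5G1 (-0.64) were again among the lower, with NDUFV3 (-0.92), and ATP5EP2, a pseudogene of the epsilon subunit, was higher (1.13), each with a limma adjusted p of 0.718. The groups did not overlap for 19 lower and 2 higher genes (20.9% and 7.34% of all genes). The median of the chain genes was -0.26 and that of all genes -0.22. Without the siOC2 hypoxia 1 library these were 0.06 and 0.04, and scaling by upper quartile gave -0.13 and -0.09, so the level of this arm rests on that library. Without siOC2 hypoxia 2, which leaves that library alone in its group, some genes were called lower. No chain gene passed the test of a difference between the siOC2 and siCtrl responses (limma interaction, adjusted p under 0.05), where 0% of all genes were higher and 0% lower. At an unadjusted P under 0.05 there were also 0, with 0.254% of all genes higher and 0.778% lower. Since no gene at all passed the adjusted test, it cannot show that the responses were alike.

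Some genes were lower in hypoxia without overlap in all 4 arms of both lines. They were ATP5G1, ATP5G3, COX6B1, COX8A, CYC1, NDUFA11, NDUFB7, NDUFS6 and NDUFV3, 9 of the 83 genes in both tables, where 4.18% of the 10937 genes tested in both met the same condition. ATP5G1 read 131 and 142 RPKM in siCtrl normoxia, 79.6 and 98.9 in siCtrl hypoxia, 143 and 121 in siOC2 normoxia and 70.0 and 102 in siOC2 hypoxia.

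Silencing of ONECUT2 in PC3 left the chain genes without a called change. In normoxia 0 of 83 passed (limma; 0% of all genes higher, 0.00819% lower), and at an unadjusted P under 0.05 2 were higher and 1 lower (6.69% and 2.58% of all genes). In hypoxia 0 passed (limma; 0.106% higher, 0.106% lower), again with 2 higher and 1 lower unadjusted (5.81% and 6.37%). They were the same 3 genes. The comparisons share no library, but they share 1 estimate of the spread and the same siRNAs, so they are not independent. Without siOC2 hypoxia 2, some genes were called lower in hypoxia. Of the 2 higher genes, 1 is NDUFA4L2. Its siCtrl values of 0.11 to 0.52 RPKM lie near the pseudocount. It was tested only through its siOC2 libraries (0.69 to 3.46 RPKM), so nothing is read from its fold. COX6C, a structural subunit of complex IV, read 253 and 245 RPKM in siCtrl normoxia and 377 and 384 in siOC2 normoxia, then 311 and 253 in siCtrl hypoxia and 389 and 472 in siOC2 hypoxia, without overlap (0.61 in both, SE 0.22, limma adjusted p = 0.434 and 0.31). ATP5H, a peripheral stalk subunit, was lower (-0.95 and -1.06, SE 0.37, limma adjusted p = 0.485 and 0.296).

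The 2 siRNAs gave different values for some genes. Against the mean of the siCtrl libraries, COX6C was higher by 0.60 with siRNA 1 and 0.63 with siRNA 2 in normoxia and by 0.47 and 0.75 in hypoxia. ATP5H was at -0.45 and -1.44 in normoxia and -0.70 and -1.42 in hypoxia. UQCRB was at 0.17 and -1.14, then -0.48 and -1.26, and NDUFB5 at 0.07 and -1.50, then -0.78 and -1.33, so that siRNA 2 gave the lower values. ATP5C1 went the other way, at -1.11 and -0.16 in normoxia and -2.23 and -0.03 in hypoxia. NDUFC2-KCTD14 was at -1.25 with siRNA 1 and 1.81 with siRNA 2 in normoxia. Each siRNA has 1 library per condition, so these differences have no replicate and were not tested. The siRNA 1 library in hypoxia is the shallowest, at 0.303 of the deepest. The control means also hold shallow libraries, siCtrl hypoxia 2 (0.333) and siCtrl normoxia 1 (0.364).

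**Figure D5:**
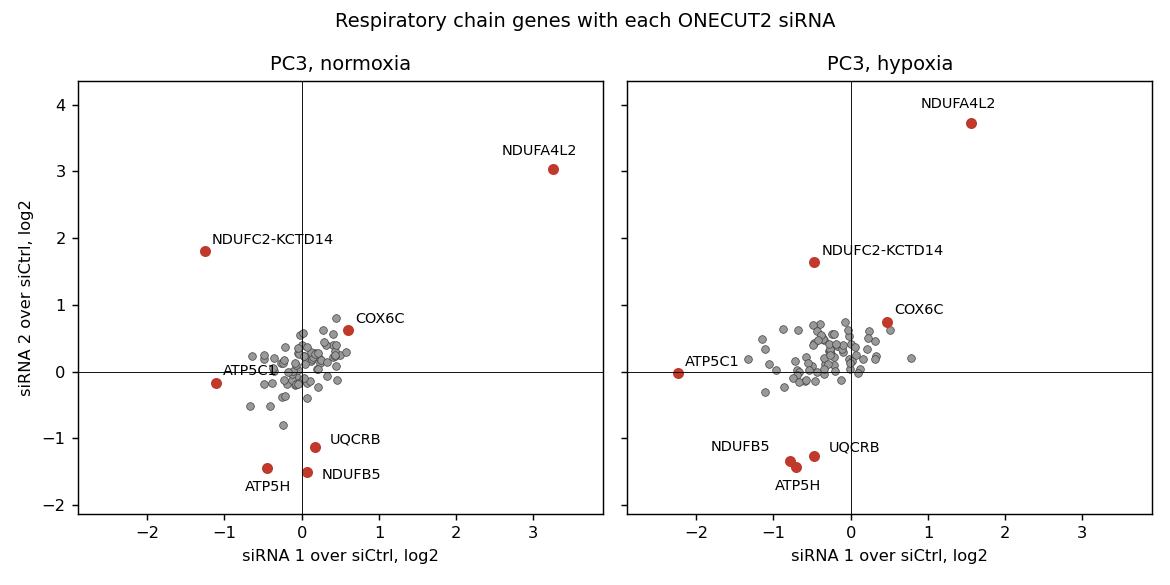
Log2 ratio to the siCtrl mean of each chain gene with siRNA 1 (x axis) and siRNA 2 (y axis) in PC3 normoxia and hypoxia. COX6C and NDUFA4L2 lie at the upper right in both panels, UQCRB, NDUFB5 and ATP5H low on the y axis, and ATP5C1 to the left.

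NDUFC2-KCTD14, a transcript that runs from NDUFC2 into the next gene, gave a measure of how reads were divided. It was at 14.9 RPKM in LNCaP EV normoxia 2 and at 124 to 171 in the other 7 libraries, while NDUFC2 was at 383 in that library and at 207 to 280 in the others. The sum of both was 338 to 433 in all 8 libraries. Values for either transcript alone are therefore uncertain.

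The genes that assemble and regulate the chain were read for comparison. Of 51 assembly factors 46 were tested, and 19 were lower and 5 higher in LNCaP EV hypoxia, 12 lower and 4 higher with OC2 (limma, adjusted p under 0.05), where 14.4% and 18.5% of all genes were lower and higher in EV and 8.76% and 18.8% with OC2. The same shares stand behind the lists that follow. SCO1 (-0.80; -0.90), which carries copper to complex IV, ECSIT (-0.85; -0.95), a complex I factor, and LYRM7 (-0.78; -1.32), which matures the Rieske protein, were lower in both arms, and CMC2 was higher in EV (0.88). Of 12 biogenesis factors, PPARGC1A (-1.83), TFB2M (-0.81) and ESRRA (-0.54) were lower and YY1 (0.40) higher in EV, whereas in OC2 none was lower and NRF1 (0.58) and YY1 (0.41) were higher. PPARGC1A, the coactivator of mitochondrial biogenesis, was low throughout, at 1.65 and 1.17 RPKM in EV normoxia, 0.33 and 0.31 in EV hypoxia, 0.49 and 1.13 in OC2 normoxia and 1.09 and 0.89 in OC2 hypoxia. It was higher in hypoxic OC2 than in hypoxic EV (1.37, limma adjusted p = 0.0466).

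Among 12 hypoxic regulators of respiration, 5 were higher and 4 lower in EV and 5 and 2 in OC2. PDK1, the kinase that closes pyruvate dehydrogenase, rose by 2.34 in EV, and the mitophagy receptors BNIP3L and BNIP3 by 2.15 and 2.02. Tricarboxylic acid cycle enzymes gave 3 lower and 1 higher of 14 in EV and 5 and 1 in OC2, with OGDH at -0.56, SUCLG1 at -0.40 and IDH3B at 0.35 in EV. In PC3 siCtrl hypoxia 1 gene of these 4 lists passed, MXI1 (2.14, limma adjusted p = 0.0269).

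The subunits encoded in mitochondrial DNA, which are built into the same complexes, had lower medians. Of 13 such genes, 7 were tested in LNCaP, and all 7 were lower in both arms (limma, adjusted p under 0.05; medians -1.39 and -1.65), the other 6 being listed at 0 in every normoxic library, except MT-CO1 in OC2 normoxia 1 (17679 RPKM). Those 6 read 5980 to 121516 RPKM in the hypoxic LNCaP libraries. Their 0 values were taken as missing, so the LNCaP medians do not cover them and their change could not be read. All 13 lay below 0 in PC3, with medians of -0.87 in siCtrl and -0.73 in siOC2, and none passed the adjusted test there, whereas 9 and 10 had an unadjusted P under 0.05. Medians over the nuclear-encoded subunits of the 5 complexes were -0.35 and -0.24 in LNCaP EV and OC2 and -0.07 in PC3 siCtrl.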

How the data were processed

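PolyA RNA-Seq of 16 libraries (8 of PC3, 8 of LNCaP; TruSeq Stranded mRNA) was used, and 12 ChIP-Seq samples were not analysed here. Per the labels' processing notes and the methods, the authors aligned reads with STAR 2.4.2a to hg19 and deposited RPKM values per gene symbol from Cufflinks 2.1.1 (GENCODE, GRCh37), in 1 table per line. RPKM are relative to each library and hold no counts, so no count model was used.

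Groups were taken from sample titles. In each table log2(RPKM + 0.1) was fitted, for every gene that reached 1 RPKM in 2 or more libraries, with limma 3.58.1 (R 4.3.3): 4 group means, moderated variance with a trend, two-sided tests, Benjamini-Hochberg adjustment over all genes tested, and a call at an adjusted p under 0.05. Each fit had 4 residual degrees of freedom. Separately from this, an exact test of 2 against 2 libraries cannot give a p below 0.33. An exact 0 beside a median above 10 RPKM in the other libraries was taken as missing (18 values in PC3, 68 in LNCaP, in 0 chain genes). The fit was tested on simulated data. Promoter windows are from RefSeq.

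The chain genes, the other gene lists and the tests were chosen with earlier results of these data known. Named genes were isoform pairs, the SDH genes, CYC1 and UQCRFS1, the 2 highest genes of each complex, genes next to the 1 RPKM limit, up to 5 called genes per direction and contrast with the largest change (up to 3 at an unadjusted P where none was called), up to 4 called genes per other list, and the 5 genes most like NDUFA4L2 or COX4I2. Other genes were named after their values were seen: those apart between the siRNAs or between the lines' ranks, NDUFC2-KCTD14, and the further calls within a complex. Alternatives were a pseudocount of 1, no filter or 5 RPKM, upper-quartile scaling, a replicate block, 0 used as a value, a fold over 2 with an unadjusted P, each library left out and, added after the data were seen, a term for the siRNA and a crossed pairing. Same-numbered siOC2 libraries share an siRNA (correlation of deviations 0.62); EV and OC2 hypoxia libraries gave 0.29, with no label for a shared culture or day.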

Additional observations from a re-analysis of the deposited data

Results flagged for a closer look

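In the control arms, 7 chain genes had every hypoxic library below every normoxic library in LNCaP EV and above every normoxic library in PC3 siCtrl, and the difference between the lines was not tested. The log2 changes were -1.28 in LNCaP and 0.39 in PC3 for ATP5EP2, a pseudogene, and -0.40 and 0.22 for COX7A2. They were -0.39 and 0.16 for COX7C, -0.35 and 0.37 for NDUFAB1, the mitochondrial acyl carrier protein, and -0.70 and 0.11 for NDUFB1. UQCRC2 read -0.36 and 0.12, and UQCRQ -0.52 and 0.26. None of the PC3 changes passed the limma test. These are 7 of 83 genes, where 4.02% of the 10937 genes tested in both tables were higher in PC3 and lower in LNCaP in this way, and 25 of the 83 were lower in both, where 15.1% of all genes were. The other PC3 arm, siOC2, did not repeat the rise for most of them. There 2 of 83 chain genes were higher in hypoxia without overlap (7.34% of all genes), ATP5EP2 among them and 0 of complex I. All 9 complex III genes, UQCRC2 and UQCRQ included, lay below 0 in siOC2.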

How the results depend on the processing

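Counts are of chain genes called lower or higher. Calls in both LNCaP hypoxia arms kept their direction under every setting, and scaling by upper quartile kept all 33 and 19 lower genes. Without a filter on low values the EV counts were 17 lower and 1 higher, the OC2 count 12 lower, OC2 over EV 0 lower in normoxia and 1 lower in hypoxia. More genes then enter both the variance trend and the adjustment, and which of these moved the counts was not tested. Upper-quartile scaling gave 0 lower and 1 higher, and the replicate block 0 lower, for OC2 over EV in hypoxia. The block changed no other count by over 1.5 times, nor did the crossed pairing. The siRNA term did not either, but it was read only for the siOC2 hypoxia response and the PC3 interaction. A fold change over 2 with an unadjusted P under 0.05 left 2 lower and 1 higher in EV hypoxia (2.35% and 5.56% of all genes), 1 and 1 in OC2 hypoxia (1.39%, 5.46%), 1 lower and 1 higher for OC2 over EV in normoxia (0.489%, 2.81%), 0 lower in hypoxia (0.758%) and 1 higher in the LNCaP interaction (2.36%). In PC3 the same setting called 1 lower in siCtrl hypoxia (1.65%), 1 higher in siOC2 hypoxia (1.1%), 1 higher for siOC2 over siCtrl in normoxia (3.64%) and 1 higher and 1 lower in hypoxia (3.56%, 3.99%). The gene higher for siOC2 over siCtrl was NDUFA4L2 in both, which was tested only through its siOC2 libraries and from whose fold nothing is read. With each library left out in turn, the lone library being assumed to vary like the other groups, lower genes ran from 7 to 46 and higher from 1 to 2 in EV hypoxia, from 2 to 17 and 1 to 2 in OC2 hypoxia, from 0 to 18 and 0 to 2 for OC2 over EV in normoxia, stayed at 0 in hypoxia, and ran from 0 to 1 and 0 to 4 in the interaction. In PC3 they ran from 0 to 5 lower in siOC2 hypoxia and 0 to 4 lower for siOC2 over siCtrl in hypoxia, the highest both without siOC2 hypoxia 2. With siCtrl libraries whose numbers were negatively correlated (-0.19), crossing them left 0 calls. Over all genes, upper-quartile scaling moved the share of higher among called genes from 0% to 32% and from 50% to 39.7% for siOC2 over siCtrl in normoxia and hypoxia, and from 66.0% to 83.2% and 57.8% to 69.8% for OC2 over EV. Depth is known only relative to the deepest library, so no counting interval can be given.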
